A study of Mus musculus with 12 samples.

Results

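The transcripts described here encode 10 chains of cytokine receptors on CD8 T cells, chosen by gene symbol: Il6ra, Il6st, Il27ra, Il7r, Il2rg, Il4ra, Il21r, Il10ra, Il10rb and Ifngr1. All 10 have a row among the 11581 genes of the deposited table. The series asks how CD8 T cells change when they carry scurfy, a mutation that inactivates Foxp3, which encodes a forkhead transcription factor that defines regulatory T cells. OT-1 cells were used, in which a T cell receptor transgene confers recognition of SIINFEKL, a peptide of ovalbumin. Scurfy libraries came from chimeras made with marrow of OT-1 Foxp3Scurfy CD45.1+/2+ donors together with marrow of CD45.2+ donors, and wild-type libraries from chimeras made with marrow of OT-1 Foxp3wt CD45.1+/2+ donors and CD45.2+ donors. In both groups the labels give the strain as CD45.2+ C57BL/6 J, the cells as highly purified fresh CD8 T cells, and the time as 2 months after reconstitution, and they do not say whether OT-1 cells were separated from those of the CD45.2+ donors or whether each library came from its own mouse. The p-values below thus rest on the variation among these libraries, part or all of which may be technical. The 3 unstimulated scurfy libraries were compared with the 3 unstimulated wild-type libraries, and the 6 libraries of cells given peptide for 6 h were not analysed here.

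Cytokine receptors of this kind have no enzyme activity of their own. Ligand brings chains together, the Janus kinases bound to their tails phosphorylate them, and STAT factors then dock, become phosphorylated and enter the nucleus. Interleukin-6 binds Il6ra and signals through Il6st (gp130), which interleukin-27 also uses together with Il27ra. Interleukin-7, which keeps naive T cells alive, binds Il7r, and interleukin-4 and interleukin-21 bind Il4ra and Il21r. All of these last 3 signal together with the common gamma chain Il2rg. Il10ra and Il10rb form the receptor for interleukin-10, and Ifngr1 is the ligand-binding chain for interferon gamma.

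Since the mutated gene encodes a forkhead factor and Ets factors are known to act at the Il7r promoter, the 250 bases before the annotated start are shown for Il6ra, the member called below, for Il7r, whose groups overlapped, and for the 2 members with a forkhead match. The sequences are RefSeq's on GRCm38.p6, which is not the build that the submitters name, and 7 of the 10 members matched an entry. Il10ra, Il10rb and Il27ra did not. Capitals mark a forkhead core (TGTTTAC or TATTTAC), an Ets core (GGAAGT) or a STAT element (TTCNNNGAA), each searched on both strands.
Il6ra (chr3:89913197-89913446, minus strand): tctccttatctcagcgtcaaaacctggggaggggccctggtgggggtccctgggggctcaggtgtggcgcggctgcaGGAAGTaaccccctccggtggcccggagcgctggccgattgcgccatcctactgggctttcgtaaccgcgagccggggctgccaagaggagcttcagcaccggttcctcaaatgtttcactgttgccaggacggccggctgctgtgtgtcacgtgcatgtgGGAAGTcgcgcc
Il7r (chr15:9529877-9530126, minus strand): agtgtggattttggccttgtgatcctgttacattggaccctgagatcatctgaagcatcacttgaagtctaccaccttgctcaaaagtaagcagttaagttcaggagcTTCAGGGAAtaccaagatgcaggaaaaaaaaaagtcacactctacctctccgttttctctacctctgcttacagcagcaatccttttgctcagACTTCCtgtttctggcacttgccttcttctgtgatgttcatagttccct
Il4ra (chr7:125552021-125552270, plus strand): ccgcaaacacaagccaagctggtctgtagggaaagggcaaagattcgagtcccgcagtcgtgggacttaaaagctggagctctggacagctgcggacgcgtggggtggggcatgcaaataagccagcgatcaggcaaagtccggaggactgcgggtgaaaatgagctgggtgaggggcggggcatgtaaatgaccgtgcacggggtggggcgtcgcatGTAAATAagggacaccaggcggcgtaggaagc
Il21r (chr7:125603179-125603428, plus strand): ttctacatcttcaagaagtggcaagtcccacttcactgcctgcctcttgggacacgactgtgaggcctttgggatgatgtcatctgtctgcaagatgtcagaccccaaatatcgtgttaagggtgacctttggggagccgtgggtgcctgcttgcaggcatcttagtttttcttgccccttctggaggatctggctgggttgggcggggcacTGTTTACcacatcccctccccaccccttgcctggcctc
The Il6ra window holds 2 Ets cores, from base 173 to base 168 and from base 12 to base 7 before the start, and no forkhead core. The Il7r window holds 1 Ets core on the reverse strand, from base 49 to base 44, and 1 STAT element, from base 142 to base 134. A forkhead core lies in the Il21r window from base 38 to base 32, and on the reverse strand of the Il4ra window from base 32 to base 26. The windows of Il6st, Il2rg and Ifngr1 hold none of the 3 motifs. No 2 marked matches overlap. Among 32536 distinct RefSeq windows of this length, 5.75% hold a forkhead core, 19.8% an Ets core and 7.04% a STAT element. A match is only a run of letters in this window. Il4ra and Il21r are neighbouring protein-coding genes on chromosome 7 in RefSeq, and Il10rb lies on chromosome 16 between the interferon receptor genes Ifnar2 and Ifnar1.

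Of the 10 receptor transcripts, Il6ra alone passed the test, being 1.45-fold lower in scurfy libraries. It passed in 9 of 16 other settings, but in 1 of the 6 that left out a single library, and not with a length trend removed. The other 9 did not pass the test, with log2 fold changes (scurfy minus wild type) between -0.27 for Il10rb and 0.16 for Il6st. All levels are normalized counts, that is, reads divided by the authors' scaling factor for each library. The test was limma on log2(normalized count + 1), fitted over all 11581 genes with Benjamini-Hochberg adjustment, and a gene was called at an adjusted p under 0.05. By this rule 4.47% of all genes were called, 2.35% lower and 2.12% higher in scurfy libraries, so 1 call among 10 members does not set them apart from the table. With libraries scaled by their size alone, 929 genes were called and 18.1% of these were higher in scurfy, against 47.5% of the 518 calls under the authors' scaling. On recovered reads edgeR and DESeq2 each also called 1 member, Il6ra, against 4.84% and 8.9% of the genes they tested. At an unadjusted p under 0.05 limma had 2 members, against 21.2% of all genes. The median log2 fold change was -0.13 over the 10 members and 0.01 over all genes.

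Libraries held 8852518 to 23149523 reads over the table, and members had between 241 reads (Il10ra) and 20722 reads (Il2rg) per library. Foxp3 itself has no row, and its level could not be used to check the genotype labels. CD8 T cell identity was checked with 8 markers, all with a row, of which Cd8b1 had a mean of 21566 ± 300.4 in scurfy libraries against 21498 ± 203 in wild-type libraries (normalized counts, SD, n = 3 each). Cd3d, a chain of the CD3 complex, was the 1 marker called of these 8 and rose from 6837 ± 281 to 11635 ± 1898. The helper T cell markers Cd4, Zbtb7b and Cd40lg have no row. Scurfy library 3 was the lowest or the highest of its group for all 10 members, and wild-type library 3 likewise, against 74.2% and 69.1% of all genes for which these 2 libraries lay at an edge. Values without each library are given where they change a statement. A fit without both libraries numbered 3 was added after the values had been seen, and these 2 were picked because of how they lay for these very genes, so what it calls is a description. In bulk RNA, fewer cells that express a receptor and less transcript per cell cannot be told apart.

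Il6ra encodes the chain that binds interleukin-6 (ENSMUSG00000027947, chromosome 3). Its values in scurfy libraries 1 to 3 were 1412, 1274 and 1015 normalized counts, those of wild-type libraries 1 to 3 being 1769, 1733 and 1810.3. Every scurfy library was below every wild-type library, and the wild-type values were much closer together, with a coefficient of variation of 2.18% against 16.3% in scurfy. The means were 1234 ± 201 and 1771 ± 38.6 (SD, n = 3 each), and limma's log2 fold change was -0.53 (SE 0.13, 95% interval -0.80 to -0.27, limma adjusted p = 0.0275). EdgeR on recovered reads gave -0.53 (adjusted p = 0.0263). The authors' deposited table gives -0.52 with an adjusted p of 0.00521 (8.9% of the genes with an adjusted p there are under 0.05). DESeq2 on recovered reads returned the same values, so it is not a separate result from the deposited one. The call was not stable when single libraries were left out. With any one of them left out the log2 fold change stayed between -0.64 and -0.40, but the call held only without scurfy library 1. It ended without scurfy library 2 (limma adjusted p = 0.0681), scurfy library 3 (0.0681), wild-type library 1 (0.0727), wild-type library 2 (0.0743) or wild-type library 3 (0.0875). Without both libraries numbered 3 it was at -0.38 and did not pass either (adjusted p = 0.0759). An antisense gene, Gm42809, shares 2.80% of the annotated exonic bases of Il6ra, and reads there cannot be assigned if strand was not used.

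Long genes were more often called lower than genes as a whole. The annotated exons of Il6ra span 8642 bases, longer than those of 87.2% of genes. Of 1722 genes with 0.8 to 1.25 times that length, 57 (3.31%, against 2.35% of all genes) were called lower and 3 higher (0.174%, against 2.12%), with a median log2 fold change of -0.08. With a smooth length trend removed from each library, Il6ra was at -0.42 and no longer passed (limma adjusted p = 0.0838). The longest member, Il6st, with 11099 exonic bases, went the other way, at 0.16 as reported and 0.29 with the trend removed, and did not pass in either fit.

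Myeloid cells and cells of the B lineage are also known to carry Il6ra, and some marker transcripts of both differed between the groups. Of 12 B cell markers 8 have a row, and each of the 8 was lower on average in scurfy libraries, the median log2 fold change being -0.71. That median joins unlike genes. The MHC class II genes H2-Aa, H2-Ab1 (-3.48) and H2-Eb1 (-2.34) and Cd74 (-0.99) did not overlap between groups. Cd79b (-0.25), Ighm (-0.08), Ighd (-0.17) and Igkc (-0.43) overlapped. H2-Aa, an MHC class II chain, fell by 3.97 on the log2 scale, from 71.7 ± 13.6 to 6.82 ± 8.08 normalized counts. It read 15.7, 0 and 4.73 in scurfy libraries, so the size of the fold depends on the pseudocount, and it did not pass without wild-type library 2 (limma adjusted p = 0.0661) or wild-type library 3 (0.0706). The defining B cell markers Ms4a1, Cd79a and Pax5 have no row. The summed level of the 8 B cell markers was 9915 to 11806 in scurfy and 11035 to 11932 in wild-type libraries. Most of it is Ighm, at 10309 ± 744 in scurfy and 10862 ± 400 in wild type, so the sum mainly follows this 1 gene. Cd79b was at 136 ± 4.93 and 166 ± 45.9. Of 10 myeloid markers 2 have a row, whereas Lyz2, Itgam, Csf1r, Fcer1g, S100a8, S100a9, Adgre1 and Itgax have none. Cst3, a protease inhibitor, rose from 974 ± 155 to 1454 ± 60.7 normalized counts. It did not pass without wild-type library 2 (limma adjusted p = 0.0815), scurfy library 2 (0.0562) or scurfy library 3 (0.0514). Nor did it pass with the length trend removed (0.0639) or on library size alone (0.0529). The sum of the 2 myeloid markers was 1463 to 1579 in scurfy and 850.2 to 1172 in wild-type libraries. Eomes, the 1 natural killer marker with a row among 5, was at 87.2 ± 11.3 and 107 ± 7.69. Of 9 erythroid and platelet markers only Car2 has a row, and it fell by 1.12 on the log2 scale, with a limma adjusted p of 0.0645 without wild-type library 3. The part of other cells and of length in the Il6ra difference was not tested.

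**Figure D1:**
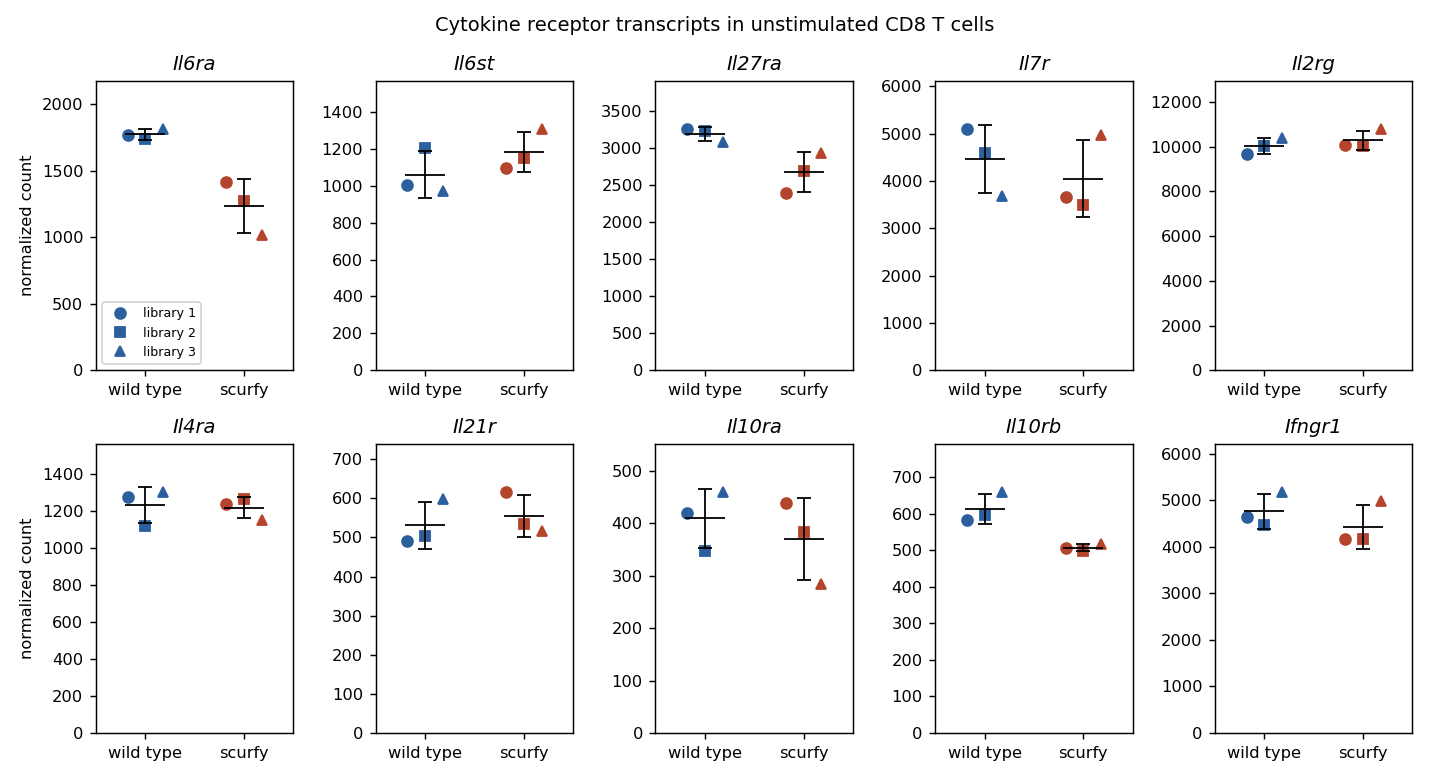
Normalized count (vertical axis, from 0) of each of the 10 receptor transcripts in the 3 wild-type (blue) and 3 scurfy (red) unstimulated libraries, with marker shapes for the library number and black bars for the mean ± SD. The scurfy values of Il6ra, 1015 to 1412, all lie below the wild-type values, 1733 to 1810.3. Il27ra and Il10rb are also separated, whereas the other 7 transcripts overlap.

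The partner chain Il6st, which carries the signal of several cytokines of this family, did not fall with Il6ra. Scurfy libraries read 1093, 1148 and 1306 normalized counts, and wild-type libraries 1006, 1203 and 973. The groups overlapped, with a log2 fold change of 0.16 (95% interval -0.10 to 0.42, limma adjusted p = 0.490). The ratio of Il6ra to Il6st within a library does not depend on how libraries are scaled. As a log2 value it read 0.37, 0.15 and -0.36 across scurfy libraries 1 to 3, whereas wild-type libraries 1 to 3 read 0.81, 0.53 and 0.90. Its mean was thus lower by 0.69 in scurfy, with no overlap. The ratio was chosen after the values of both genes were seen and was given no test.

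Il27ra, the chain specific to interleukin-27, had values of 2394, 2687 and 2934 in scurfy and 3249, 3232 and 3081 in wild type. All scurfy values were lower, but with a log2 fold change of -0.26 (SE 0.10, 95% interval -0.48 to -0.035) it did not pass (limma adjusted p = 0.169, unadjusted p = 0.0264). On library size alone it was at -0.40 with an adjusted p of 0.0341, a scaling under which the median of all genes also fell by 0.14 on the log2 scale. Relative to Il6st its log2 ratio was 1.13, 1.23 and 1.17 in scurfy and 1.69, 1.43 and 1.66 in wild type, again without overlap. Both ratios have the same denominator, and 18.1% of all genes likewise had a ratio to Il6st that was lower in every scurfy library than in any wild-type library. Il11ra1, the interleukin-11 binding chain that also signals through Il6st, had log2 ratios of -2.28, -2.44 and -3.34 in scurfy and -2.91, -2.61 and -2.53 in wild type. These overlapped, and Il11ra1 is named here after its values were seen.

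**Figure D2:**
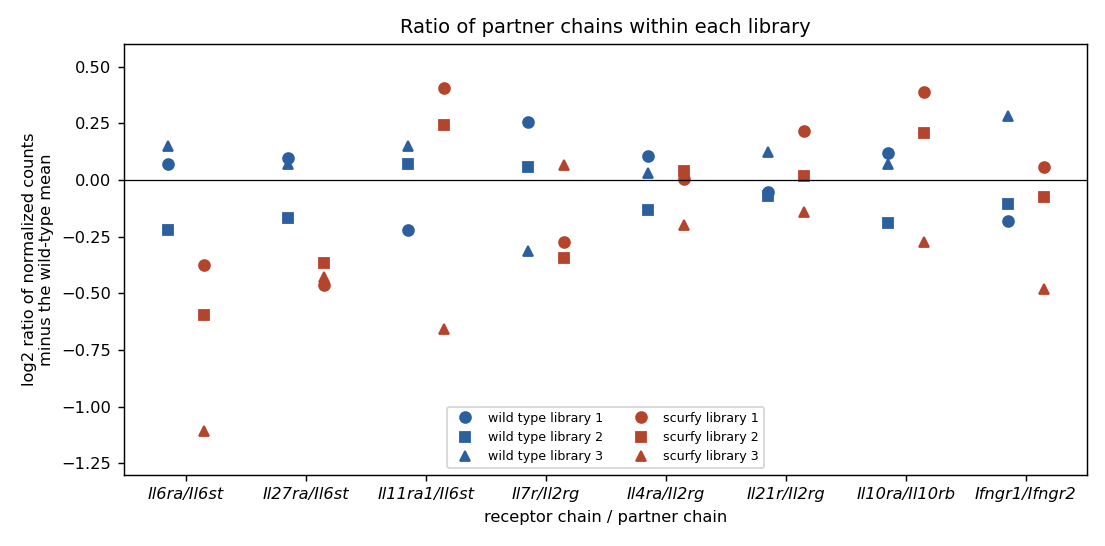
Log2 ratio of a receptor chain to the chain it pairs with, within each library and minus the wild-type mean (vertical axis), for 8 pairs. Blue is wild type, red is scurfy, and shapes mark library numbers. The ratios of Il6ra and of Il27ra to Il6st are lower in all 3 scurfy libraries than in any wild-type library, and the other 6 pairs, Il11ra1 to Il6st among them, overlap.

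Among the chains of the gamma-chain family none passed in limma, and none had an unadjusted p under 0.05. Il7r varied most. Scurfy libraries 1 to 3 read 3669, 3484 and 4979 normalized counts, whereas wild-type libraries 1 to 3 read 5092, 4597 and 3689. Scurfy libraries 1 and 2 were below every wild-type library, whereas scurfy library 3 was above wild-type libraries 2 and 3. The log2 fold change was -0.15 (SE 0.14, 95% interval -0.46 to 0.16, limma adjusted p = 0.600), and it ranged from -0.31 without scurfy library 3 to -0.04 without wild-type library 1. That interval corresponds to 0.729 to 1.12 times the wild-type level. Without both libraries numbered 3, the highest of the scurfy and the lowest of the wild-type values, Il7r was at -0.44 and passed (limma adjusted p = 0.0283), the 1 member called in that fit. Since those libraries were picked with these values in view, this call is not support for a difference, and it shows how far the Il7r value depends on 2 libraries.

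Il2rg, the common gamma chain itself, read 10053, 10018 and 10779 normalized counts for scurfy against 9656, 10015 and 10403 for wild type. Its log2 fold change was 0.04 with the narrowest interval of the 10 members, -0.18 to 0.25 (limma adjusted p = 0.872). Of its annotated exonic bases 30.5% also belong to Gm20489, a gene on the same strand, so the Il2rg level is uncertain where reads fall in shared bases. How many reads fall there is not known. Il4ra was at 1236, 1262 and 1151 in scurfy and 1273, 1119 and 1302 in wild type, and the scurfy range lay within the wild-type range (log2 fold change -0.02, 95% interval -0.25 to 0.22). Il21r was at 616, 535 and 515 in scurfy and 490.5, 503 and 598 in wild type, with a log2 fold change of 0.07 (95% interval -0.23 to 0.37). Il4ra and Il21r, the 2 members with a forkhead core among the 7 with a promoter window, were both close to 0, and neither passed. Whether these matches play any part was not tested. The signs of Il4ra and Il21r were not stable. Il4ra was positive in 5 of the 16 other settings (0.05 with the length trend removed, for example). On library size alone Il4ra was at -0.15 and Il21r at -0.069. Il2rg was at -0.10 on that scaling. Gm44876, an antisense gene, shares 9.51% of the annotated exonic bases of Il4ra, and reads there cannot be assigned if strand was not used. The share of reads that fall there is not known.

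The chains for interleukin-10 and interferon gamma did not pass either. Il10rb, the accessory chain, read 505, 499 and 518 normalized counts for scurfy and 582, 597 and 659.7 for wild type. All scurfy values were lower and lay close together, with a log2 fold change of -0.27 (95% interval -0.55 to 0.0033, limma adjusted p = 0.241). Of its exonic bases 14.9% also belong to Gm21970, a gene on the same strand, so its level is uncertain in the same way as that of Il2rg. Il10ra, which binds the cytokine, read 439.6, 383 and 285 for scurfy and 420.0, 348 and 459.9 for wild type (log2 fold change -0.16, 95% interval -0.55 to 0.23). Its groups overlapped, and without scurfy library 3 its log2 fold change was 0.013. Ifngr1 was at 4163, 4162 and 4980.2 in scurfy and 4647, 4469 and 5183 in wild type, with a log2 fold change of -0.11 (95% interval -0.34 to 0.13). In both groups library 3 had the highest Ifngr1 value, and the groups overlapped. Groups without overlap were seen for 3 of the 10 members, all lower in scurfy, against 27.1% of all genes in either direction and 13.7% lower.

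**Figure D3:**
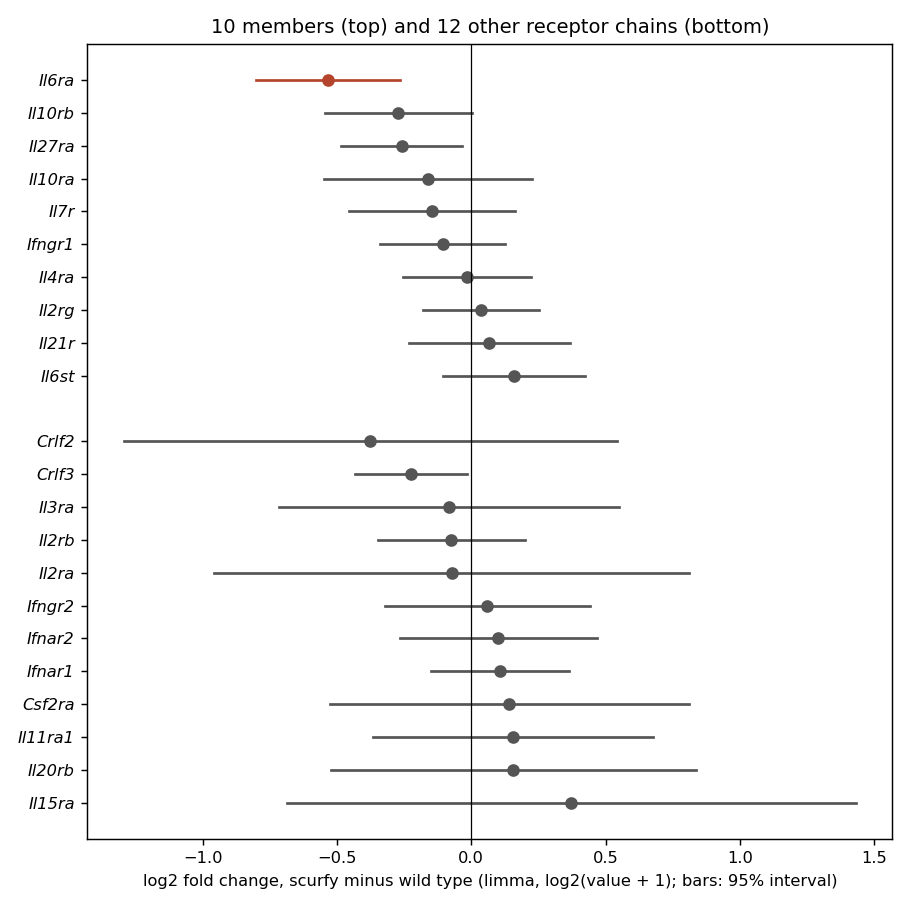
Log2 fold change, scurfy minus wild type (horizontal axis), with the 95% interval from limma for the 10 members (top) and 12 other receptor chains with a row (bottom), each block ordered by value. Red marks the 1 gene called, Il6ra at -0.53. The interval of Il27ra also lies below 0, that of Il10rb ends at 0.0033, and those of the other 7 members span 0.

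Of 24 other type I receptor chains 8 have a row, and none passed in limma, edgeR or DESeq2. An unadjusted p under 0.05 was seen for 1 of the 8, against 21.2% of all genes. That was Crlf3, an orphan chain, which averaged 3961 ± 90.9 normalized counts in scurfy against 4632 ± 277 in wild-type libraries (log2 fold change -0.22, limma adjusted p = 0.200). Il2rb, which pairs with Il2rg for interleukin-2 and interleukin-15 and is named here after its value was seen, was at 614 ± 14.8 and 648 ± 65.0. Of 8 other type II chains 4 have a row. None of them passed in the 3 tools, and none had an unadjusted p under 0.05. Their log2 fold changes ran from 0.06 to 0.16. Ifnar1, the type I interferon receptor chain encoded beside Il10rb, was at 942 ± 11.1 in scurfy and 878 ± 97.7 in wild type. Of 16 ligands only Il2, Il15 and Osm have a row, and none passed in the 3 tools or at an unadjusted p under 0.05. Il15 had the smallest p of them and read 9.69, 0 and 17.7 in scurfy and 11.96, 10.6 and 31.1 in wild type. Since 3 reads correspond to 1.45 to 3.99 normalized counts, these are low levels.

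Downstream of the receptors, the kinases and STAT factors did not pass. All 11 planned Janus kinases and STAT factors have a row, and none was called by limma, edgeR or DESeq2. An unadjusted p under 0.05 was seen for 2 of the 11, against 21.2% of all genes. The median log2 fold change of the 11 was 0.18. Stat3, the main factor activated by interleukin-6, had the smallest p. It was at 766, 891 and 935 in scurfy and 1097, 969 and 1037 in wild type, lower in each scurfy library (log2 fold change -0.26, limma adjusted p = 0.229). Stat6, which interleukin-4 activates, was the other gene under that unadjusted threshold and went the opposite way, at 849 ± 179 in scurfy against 671 ± 52.6 in wild type (0.32, limma adjusted p = 0.231), with overlapping groups.

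Calls were found among inhibitors of receptor signalling, where Ptprc and Socs1 fell and the other 15 of 17 tested genes did not pass in limma. The called share was 11.8%, against 4.47% of all genes. An unadjusted p under 0.05 was seen for 7 of the 17, against 21.2% of all genes. Groups without overlap were seen for 6 lower and 1 higher, against 13.7% and 13.4% of all genes. The list was given no set test. Ptprc encodes CD45, a membrane phosphatase that acts on Src-family and Janus kinases. Its values were 5424, 5469.9 and 4694 normalized counts for scurfy and 7514, 8833 and 9736 for wild type, with no overlap. The log2 fold change was -0.74 (SE 0.12, limma adjusted p = 0.00551), and the call held whichever library was left out (adjusted p at most 0.0249) and with the length trend removed (-0.57, adjusted p = 0.0282). CD45 is also the congenic marker of the donors, and gene counts do not tell its alleles apart. Socs1, an inhibitor of Janus kinases that cytokines induce, was at 1991, 1705 and 1254 in scurfy and 2350.1, 2257 and 2770.5 in wild type. Its log2 fold change was -0.60 (limma adjusted p = 0.0368). It kept the call without scurfy library 1 and lost it without any other single library (adjusted p of 0.0683 to 0.130) or without both libraries numbered 3 (0.131). DESeq2, with 8.9% of its tested genes called, also called Socs4 lower.

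The remaining lists held 1 call. Of 8 genes for receptor shedding and adaptors none passed in the 3 tools. An unadjusted p under 0.05 was seen for 1 of the 8, against 21.2% of all genes. This was Adam10, a protease that can cleave Il6ra from the cell surface, with means of 209 ± 80.5 for scurfy against 323 ± 57.9 for wild type (log2 fold change -0.69, limma adjusted p = 0.147). None of 13 survival and growth genes that such receptors can induce passed in limma or edgeR. An unadjusted p under 0.05 was seen for 2 of the 13, against 21.2% of all genes. DESeq2, with 8.9% of its tested genes called, called Junb, a subunit of the factor AP-1, lower (limma log2 fold change -0.71, adjusted p = 0.0697). Of 12 tested factors known to act on Il7r, the Ets factor Ets1 fell from 10289 ± 529.6 to 6469 ± 1235 normalized counts. Scurfy libraries 1 to 3 read 7305, 7052 and 5051, below every wild-type value (log2 fold change -0.69, limma adjusted p = 0.0139, and 0.0548 without wild-type library 3). The other 11 did not pass in limma. An unadjusted p under 0.05 was seen for 3 of the 12, Ets1 included, against 21.2% of all genes. Nr3c1 and Klf2 were the others, named after their values were seen. Nr3c1 is the glucocorticoid receptor gene (log2 fold change -0.32, limma adjusted p = 0.0907). Klf2 encodes a factor of naive T cell trafficking (-0.31, 0.118). Each was lower in every scurfy library than in any wild-type library, as were 13.7% of all genes. DESeq2, which called 8.9% of the genes it tested, also called Klf2 lower. Over all 8 lists 3 of 76 tested genes were called, all lower, a share of 3.95% against 4.47% of all genes.

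**Figure D4:**
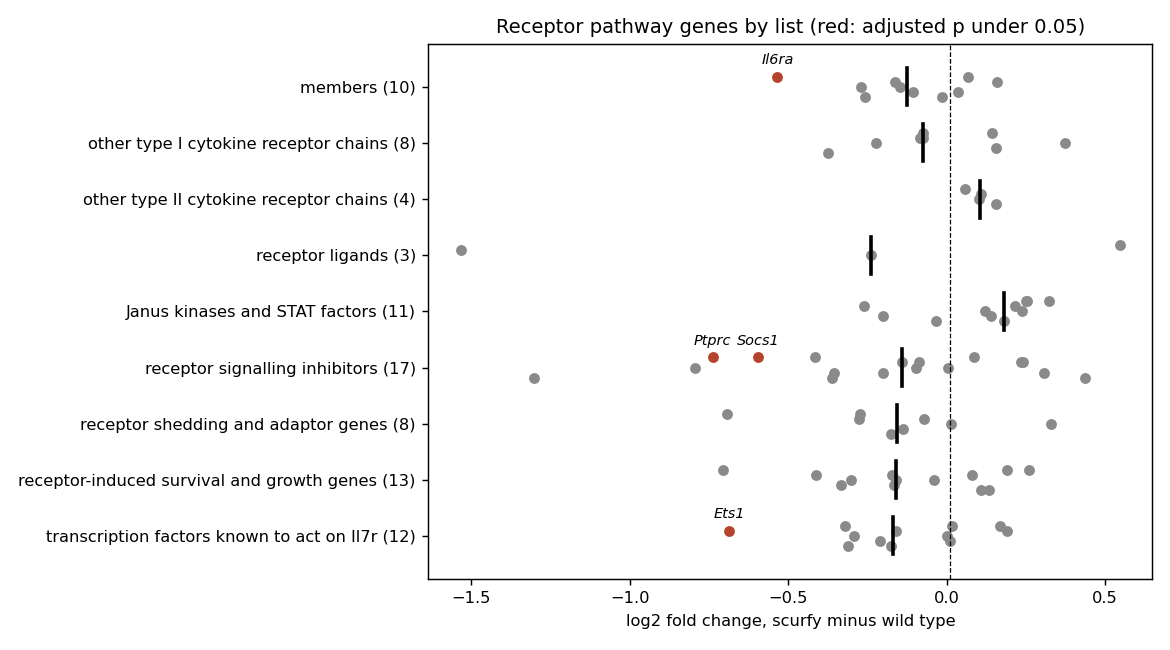
Log2 fold change, scurfy minus wild type (horizontal axis), of each tested gene of the members and of 8 receptor pathway lists, with the number tested in brackets. Black bars are list medians, the dashed line is the median of all genes, and red points passed an adjusted p of 0.05 in limma: Il6ra, Ptprc, Socs1 and Ets1, all lower in scurfy.

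The genes most like a member were taken as those with the smallest root mean square difference of centred log2 values over the 6 libraries, among 7493 named genes with a mean of at least 100 normalized counts. For Il6ra they were the DNA glycosylase gene Neil1 (difference 0.034 on the log2 scale), the polyadenylation factor gene Cstf2 (0.035) and Gipc1 (0.040). All 3 were picked for values like those of Il6ra, so that they were lower in scurfy follows from the choice. Neil1 was called (556 ± 103 against 801 ± 21.3 normalized counts, limma adjusted p = 0.0468). Cstf2 (limma adjusted p = 0.0833) and Gipc1 (0.0924) were not. For Il7r they were Tob2 (0.040), Meis3 (0.062) and Cdk19 (0.072), none of which was called. The likeness was taken from these 6 libraries and describes them only.

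**Figure D5:**
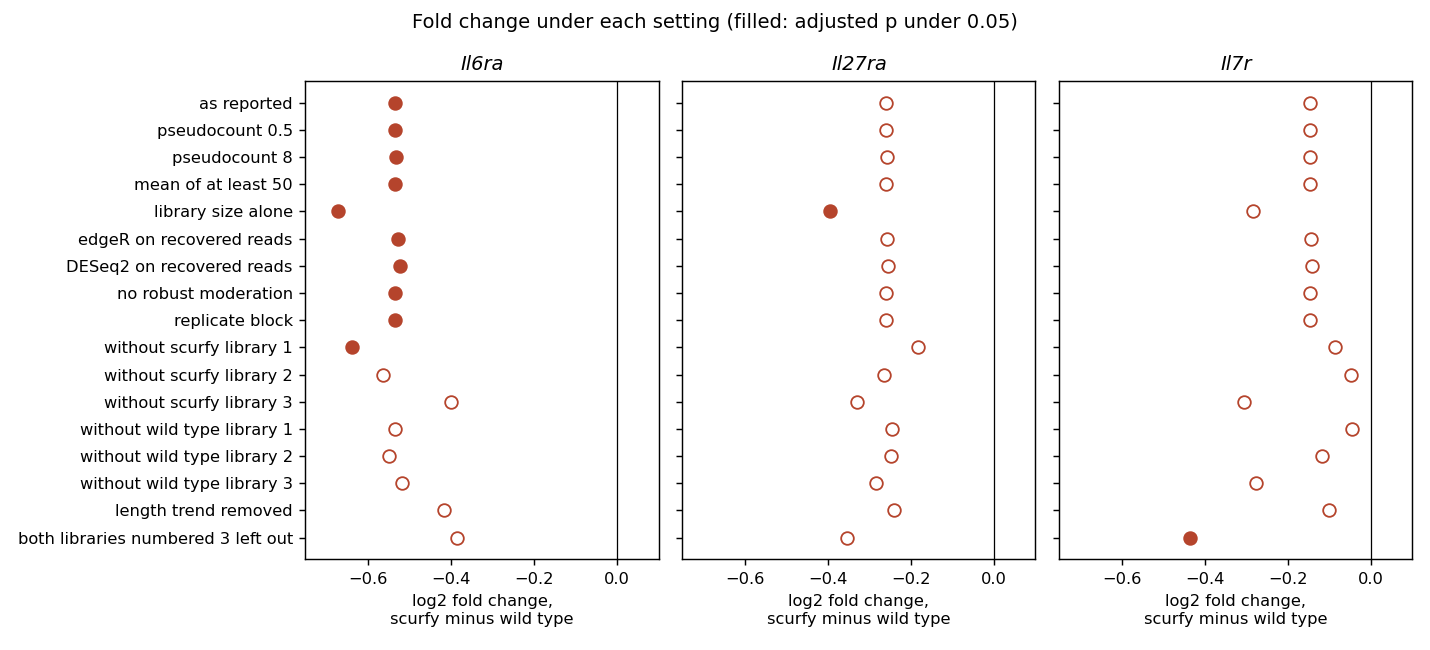
Log2 fold change, scurfy minus wild type (horizontal axis), of Il6ra, Il27ra and Il7r as reported and under 16 other settings (vertical axis), the last of which was added after the values were seen. Filled points have an adjusted p under 0.05. Il6ra stays between -0.67 and -0.38 on this axis, Il27ra is filled once, on library size alone, and Il7r is filled once, at -0.44 without both libraries numbered 3.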

How the data were processed

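Messenger RNA of 12 libraries was sequenced. Per the labels' protocols, polyadenylated RNA was primed with indexed oligo-dT, amplified by in vitro transcription and fragmented. Per the submitters' processing notes, Trim Galore 0.4.4, STAR 2.6, featureCounts, edgeR and DESeq2 were used with build NCBIM37. The sources used here do not say whether strand was used in counting, and genes with overlapping exons are therefore uncertain. Both deposited tables are identical and name the 6 unstimulated libraries. The deposited values are a signal, reads divided by 1 size factor per library. All nonzero values came out as whole reads within 0.01 read. Further deposited columns are, per the file headers, the authors' fold change as log2, a score (that change over its standard error) and p-value. A filter on low genes preceded deposit, the lowest mean being 7.10.

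Values were tested as log2(value + 1) by limma 3.58.1 (R 4.3.3) using a variance trend and robust moderation (4 residual and 10.65 prior degrees of freedom). It was checked on simulated data. Alternatives used edgeR 4.0.16, DESeq2 1.42.0, pseudocounts of 0.5 and 8, a mean of at least 50, library size alone, a replicate block, a length trend (lengths of merged exons in GENCODE M21, 11571 genes) and each library left out. A fit without both libraries numbered 3 was added after seeing the data. Libraries within a group differed by 6.86 to 32.4 times the variance of sampling. Each was treated as 1 replicate, but these values cannot tell separate mice from separate preparations of the same cells.

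Members and lists were chosen with earlier results of these data known, and 1 listed marker is not reported here. Named were all members, each pathway list's called genes (at most 4, or the smallest p), each marker list's called genes and its most abundant gene, and 3 genes most like Il6ra and Il7r.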

Additional observations from a re-analysis of the deposited data

How the results depend on the processing

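Il6ra was lower in scurfy under all 16 alternatives (log2 fold change -0.67 to -0.38) and passed in 9. It did not pass with the length trend removed, with 5 of the 6 libraries left out in turn, or without both libraries numbered 3. With each library left out, 113 to 403 genes passed, 0 or 1 of the members, and 1 to 4 genes of the pathway lists. On library size alone 929 genes passed (18.1% of them higher, against 47.5% as reported), with 2 members and 9 list genes. DESeq2 called 891 genes and 6 list genes, and removal of the length trend left 302 genes and 0 members (the cause was not tested). The sign of 4 members that never passed depended on the setting. Library size alone gave -0.10 for Il2rg and -0.069 for Il21r, and removal of the length trend gave 0.05 for Il4ra. With each library left out, Il21r lay between -0.0096 and 0.157, Il10ra between -0.299 and 0.013, and Il4ra between -0.083 and 0.026. The fit without both libraries numbered 3, chosen after seeing the data, called 290 genes (62.4% of them higher), Il7r as the 1 member (-0.44, limma adjusted p = 0.0283) and 2 list genes, with Il6ra at -0.38 (0.0759), Il4ra at 0.065 and Il10ra at 0.10. The titles share replicate numbers, but same-numbered libraries deviated with correlations of -0.031, -0.075 and -0.15. These give no sign of pairing, though so few libraries cannot exclude a shared day or preparation. The replicate block gave 372 genes, 1 member (Il6ra, limma adjusted p = 0.0359) and 2 list genes, Socs1 not among them (0.0610).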
